A study of Mus musculus with 18 samples.

Results

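Basal cells and estrogen receptor positive (ER+) luminal cells of the adult mouse mammary gland were compared by RNA-seq, in 2 libraries each. The genes compared were the 18992, of 45974 with a single row and symbol in the table, that reached a value of 10 in 2 or more of these 4 libraries. Of them, 16654 reached that value in at least 1 library of both groups, 2154 in the basal libraries only and 184 in the ER+ libraries only, so genes of the last 2 kinds passed through the group in which they were high. The libraries belong to a series of 18, in which basal (BC), ER+ luminal and ER- luminal cells (LC) were isolated by FACS at puberty, in adults and at mid pregnancy, with 2 libraries in each of 9 groups. Mice of every group had the genotype ERrtTA/TetOCre/rosaYFP, which names a tetracycline-controlled transactivator, a Cre recombinase under its control and a YFP reporter. The sources used here do not give the gates of the sort, the cells in which the transactivator acts, any doxycycline treatment, the ages or the number of animals per library. The adult basal samples are labelled as basal cells, but the cell type given for those of puberty and pregnancy is "BC luminal cells". Because nothing states that the 2 libraries of a group came from separate animals, p-values here reflect only how far these samples differ from each other, a spread that may be technical.

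The mammary duct has an inner luminal layer and an outer basal layer that rests on the basement membrane. Basal cells contract under oxytocin to expel milk, are marked by keratins 5 and 14 and the factor p63, and hold cells that can regenerate the gland on transplantation. ER+ luminal cells sense estrogen, progesterone and prolactin and pass these signals to their neighbours through secreted ligands, among them amphiregulin, RANK ligand and WNT4.

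Values below are the deposited scaled read counts, on a common total of 20000000 per library, with basal libraries 1 and 2 first and ER+ libraries 1 and 2 second. The steps between low values put the depth at 7961934 and 4266688 reads in the basal libraries and at 2578617 and 2425060 in the ER+ libraries. On that basis 1 read is worth a value of 2.51, 4.69, 7.76 and 8.25. Where both libraries of a group are at 0, a fold is given as a bound against 3 reads over the group, a value of 4.91 for basal and 11.99 for ER+ cells, which covers counting error only. Differences are of log2(value + 1), basal minus ER+, with their standard error (±). All adjusted p-values come from limma and the Benjamini-Hochberg method over 22219 tested genes. Spearman correlations over the genes compared were 0.958 between the basal libraries, 0.964 between the ER+ libraries and 0.833 to 0.855 across. The ER+ libraries and the 2 adult ER- libraries stand apart from the other 14: 23 genes lay at least 5-fold, after adding 10 to each value, above (20) or below (3) all others in these 4, and mitochondrial transcripts made up 7.08% and 5.70% of the ER+ libraries against 2.81% and 3.17% of the basal ones. Depth and this set of libraries run with the cell type in the adult comparison, and their part in it was not tested beyond the alternatives named below.

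The defining markers were high in the libraries labelled for them. Krt5, the type II keratin of basal cells (chromosome 15, 101707070 to 101712898, GRCm38), was at 8205, 9605, 109 and 157. Krt14, its type I partner, was at 22435, 37242, 272 and 429, and Trp63, which encodes the basal lineage factor p63, was at 5660, 5986, 101 and 198. In all 3 genes every basal library lay above both ER+ libraries, by 6.07 ± 0.72 for Krt5 (adjusted p = 0.000107), 6.40 ± 0.62 for Krt14 (adjusted p = 2.72e-05) and 5.35 ± 0.72 for Trp63 (adjusted p = 0.00025). Esr1, the estrogen receptor alpha gene (chromosome 10, 4611593 to 5005614), was at 932, 1566, 11208 and 12091. Pgr, the progesterone receptor gene (chromosome 9, 8899833 to 8968611), was at 731, 2377, 14528 and 20643. Areg, which encodes the secreted EGF receptor ligand amphiregulin, was at 608, 2297, 20221 and 9221. Both ER+ libraries exceeded both basal libraries in each, and the differences were -3.27 ± 0.62 for Esr1 (adjusted p = 0.0023), -3.71 ± 0.68 for Pgr (adjusted p = 0.00205) and -3.53 ± 0.79 for Areg (adjusted p = 0.00616). The Areg call was lost with the 4 compared libraries fitted alone (adjusted p = 0.0605). Basal RNA was not free of these transcripts: Esr1, Pgr and Areg were 9.33, 11.3 and 10.1 times as high in the ER+ mean, whereas Krt5 and Krt14 were 67.0 and 85.1 times as high in the basal mean. In these bulk samples, fewer cells of a type and less RNA per cell cannot be told apart.

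**Figure D1:**
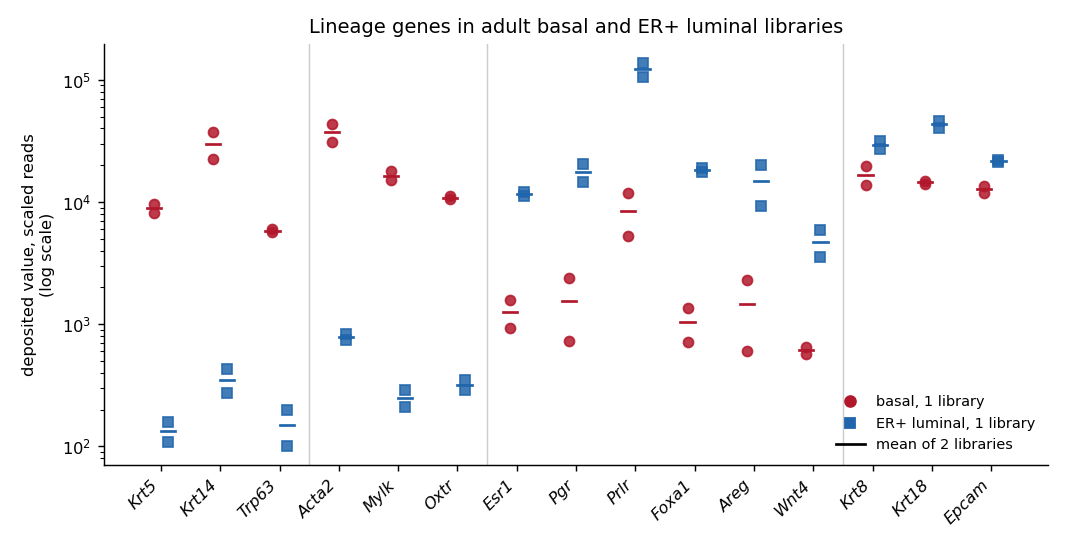
Deposited values (scaled reads, log axis) of 15 lineage genes in each adult basal library (circles) and each adult ER+ luminal library (squares), with lines at the mean of the 2 libraries. Basal and contractile genes (left) lie far above the ER+ libraries and hormone-sensing genes (middle) far below, while Krt8, Krt18 and Epcam (right) are high in both groups.

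Of all 22219 tested genes, 8129 (36.6%) were called at an adjusted p under 0.05. Among the 18992 genes compared, 4602 (24.2%) were higher in basal cells and 3073 (16.2%) were lower, and the median difference over all of them was 0.11. The surplus of higher calls lay in genes that passed through the basal libraries only, of which 1544 were called higher; of the genes that reached the minimum in both groups, 3058 were higher and 2964 lower. Basal libraries both lay above both ER+ libraries in 7209 genes (38.0%), and both lay below in 5651 (29.8%). Groups were apart in 4595 of the 4602 higher and 3070 of the 3073 lower calls. A statement below that groups do not overlap therefore adds little to a call. Counts of list members called below are to be read beside the 24.2% higher and 16.2% lower of all genes compared. The higher calls were larger in size, with a median of 3.06 against 1.03 among the lower calls, and 2343 of them against 249 were at 3 or more on the log2 scale. Among the genes that reached the minimum in both groups the medians were 1.97 and 1.00, and 884 against 151 calls were at 3 or more. The ER+ libraries were the shallower ones, and 1008 of the higher calls had both of them at 0. Of these, 89 did not exceed the ER+ bound, 528 were at least 2-fold and 87 at least 10-fold above it, and the median of the higher calls was 2.00 with such genes at their bound. Quantile normalization moved the median difference from 0.11 to -0.16 and the split of calls from 60% to 43.1% higher (3340 higher, 4408 lower), so small differences are relative to the scaling. Without basal library 2 the calls fell to 3246 higher and 1711 lower, and with the 4 compared libraries fitted alone they fell to 2399 and 958.

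**Figure D2:**
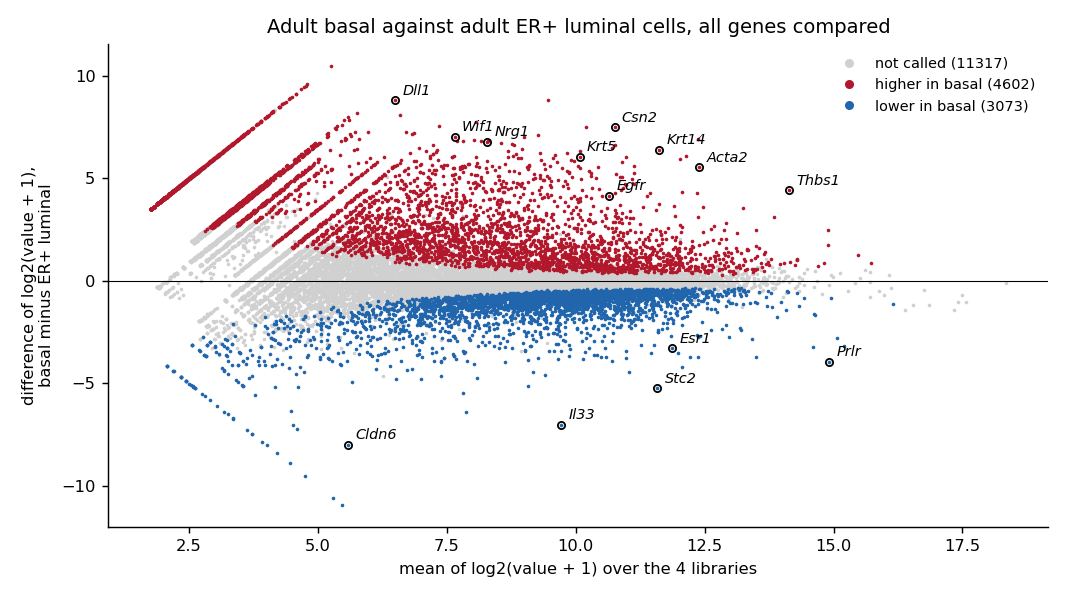
Difference of log2(value + 1) between adult basal and ER+ luminal cells (vertical axis) against the mean of log2(value + 1) over the 4 libraries (horizontal axis), 1 point per gene; 4602 genes were called higher in basal (red), 3073 lower (blue) and the rest not called (grey). The straight streaks at upper left are genes with 0 or few reads in the ER+ libraries. The labelled genes were picked by name in both directions and do not show how sizes are spread over levels.

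All 14 listed basal keratins and lineage factors passed the minimum, and 14 were higher in basal cells, with a median difference of 5.46 beside 0.11 over all genes compared. Among the factors, Id4, an inhibitor of helix-loop-helix proteins, was at 2512, 2311, 24 and 17 (6.83 ± 0.77, adjusted p = 4.24e-05), and Snai2, the zinc finger factor Slug, at 1543, 1646, 32 and 33 (5.57 ± 0.43, adjusted p = 1.96e-07). Cdh3, the P-cadherin gene of the basal layer, was at 3977, 4950, 70 and 25 (6.69 ± 0.74, adjusted p = 5.59e-05). None of the 3 had groups that overlapped. The smallest differences of the list were those of Krt15 (2.48 ± 0.39), Tbx2 (3.01 ± 0.56) and Ncam1 (3.20 ± 0.42). The list was called in 13 or 14 genes under every alternative tried.

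The contractile apparatus was higher in basal cells, in 16 of 20 listed genes with a median difference of 5.11, and none was lower. Acta2, the smooth muscle actin gene (chromosome 19, 34241090 to 34255590), was at 43643, 31050, 745 and 825 (5.55 ± 1.12, adjusted p = 0.00391). Mylk, the kinase that phosphorylates myosin light chain to start contraction, was at 17908, 15029, 210 and 289 (6.05 ± 1.25, adjusted p = 0.00448). Oxtr, the oxytocin receptor gene, was at 10508, 11147, 350 and 289 (5.08 ± 0.57, adjusted p = 8.02e-05). Each of these kept all basal values above all ER+ values. Myh11, the smooth muscle myosin heavy chain gene, was at 39629, 27497, 365 and 759 (5.97 ± 1.42, adjusted p = 0.00946), a call that was lost without ER+ library 1 (5.44, adjusted p = 0.057). The non-muscle-specific tropomyosin gene Tpm1 differed less, at 15230, 15272, 4080 and 6318 (1.59 ± 0.18, adjusted p = 1.16e-05). The 4 genes not called were Srf, the serum response factor gene (2548, 1983, 1901 and 1666), its cofactor gene Myocd (78, 61, 8 and 0), the intermediate filament gene Des (227, 183, 32 and 42) and Tagln (146, 338, 311 and 363). Tagln, which encodes the actin-binding protein transgelin, was called higher in basal cells at both other stages. Its adult difference lay below the mean of theirs by the test of the difference itself (-4.00, adjusted p = 0.00969).

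Many smooth muscle genes are controlled by serum response factor, which binds the CArG box, so the 250 bases before the RefSeq start (GRCm38.p6) of the contractile genes were searched for it. The exact box is a pair of C, 6 bases that are each A or T, and a pair of G; it reads as a box on both strands. Of 16 listed genes with a promoter entry, 2 (12.5%) held an exact box, against 439 of 27025 genes in all (1.62%), and 4 (25%) held a box with at most 1 C or G among the inner 6 bases, against 2643 (9.78%). The 4 genes were Myl9, Srf, Pdlim3 and Acta2, with the exact boxes in Myl9 and in Srf, which was not called. The box was not particular to this list: of 13 hormone-sensing genes with an entry, which were mostly lower in basal cells, 1 (7.69%) held an exact box and 4 (30.8%) a box with up to 1 change. A match is a description of the letters in this window and not a binding site. The sequences of Myl9, a regulatory myosin light chain gene, and Pdlim3, which encodes a protein of actin fibres, are shown because both genes were higher in basal cells and their boxes lie outside annotated exons. Each is printed 5′ to 3′ on the gene's strand up to the first annotated exon, with the boxes in capitals.
Myl9, chr2:156775214-156775419, plus strand: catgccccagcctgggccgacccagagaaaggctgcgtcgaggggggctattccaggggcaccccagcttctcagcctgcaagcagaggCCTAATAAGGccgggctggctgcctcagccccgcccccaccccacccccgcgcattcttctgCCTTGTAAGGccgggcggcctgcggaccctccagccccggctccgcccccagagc
Pdlim3, chr8:45885237-45885460, plus strand: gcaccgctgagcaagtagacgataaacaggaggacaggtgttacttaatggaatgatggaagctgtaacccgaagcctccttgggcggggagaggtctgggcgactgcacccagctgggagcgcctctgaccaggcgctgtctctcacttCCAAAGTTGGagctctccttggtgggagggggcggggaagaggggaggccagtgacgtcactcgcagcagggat
The first Myl9 box, CCTAATAAGG, is exact and begins at -161 from the RefSeq start, and the second, CCTTGTAAGG, begins at -99 and has 1 inner G. The Pdlim3 box, CCAAAGTTGG, begins at -100 and likewise has 1 inner G. In the libraries Myl9 was at 4512, 3165, 78 and 42 (6.02 ± 1.17, adjusted p = 0.00291) and Pdlim3 at 5600, 3216, 156 and 190 (4.62 ± 0.43, adjusted p = 8.63e-06), with no overlap between the groups in either. Genes of the list without any such box in the window, such as Cnn1 (6376, 4055, 86 and 124) and Mylk, differed by as much.

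The hormone-sensing list held 12 of 17 genes that were lower in basal cells and 2 that were higher, with a median difference of -2.52. Prlr, the prolactin receptor gene, had the highest level of the list at 5266, 11771, 106212 and 137119 (-3.94 ± 0.75, adjusted p = 0.00267). Foxa1, which encodes the pioneer factor that opens chromatin for the estrogen receptor, was at 709, 1360, 19150 and 17575 (-4.22 ± 0.72, adjusted p = 0.00133). Cited1, a transcriptional coactivator gene, was at 382, 474, 6438 and 4858 (-3.71 ± 0.44, adjusted p = 4.02e-05). The groups were apart in all 3 genes. Among the genes that were lower in basal cells the largest difference was that of Stc2, which encodes the secreted glycoprotein stanniocalcin 2, at 179, 1383, 17149 and 20825 (-5.24 ± 0.96, adjusted p = 0.0021), which just missed the threshold with the 4 compared libraries alone (adjusted p = 0.0502). Myb, Spdef, Tbx3, Tfap2b, Prom1 and Cxcl15 were lower in basal cells as well, with differences from -1.82 for Tfap2b to -3.85 for Myb. The calls of Prom1 and Cxcl15 were lost without basal library 1 (adjusted p = 0.0734 and 0.269) and without ER+ library 2 (0.0789 and 0.193). The members that were higher in basal cells were Bcl11b, a zinc finger factor gene (292, 272, 8 and 0, 6.56 ± 1.03, adjusted p = 0.000318), and Kctd1 (935, 1650, 660 and 850, 0.73 ± 0.24, adjusted p = 0.025). Bcl11b was also called higher in basal cells at puberty (696 and 748 in basal, 41 and 6 in ER+ cells), so these values do not bear out its place in this list. The Kctd1 call was lost without basal library 2 (adjusted p = 0.34) and without ER+ library 1 (0.171).

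Pan-luminal markers separated the groups less. Of 17 genes, 10 were lower in basal cells and none was higher, with a median difference of -0.89. Krt18, a type I luminal keratin gene, was at 14881, 14025, 40666 and 46457 (-1.59 ± 0.39, adjusted p = 0.00906), and its partner Krt8 at 19646, 13740, 27294 and 31579 (-0.84 ± 0.28, adjusted p = 0.0335). Epcam, which encodes an epithelial adhesion molecule, was at 13623, 11860, 22098 and 21352 and did not pass (-0.77 ± 0.29, adjusted p = 0.0543), although its groups did not overlap. Cd24a, a surface marker often used to sort luminal cells, was at 11018, 11658, 19833 and 27027 (-1.03 ± 0.29, adjusted p = 0.0151). These calls were fragile: that of Krt8 was lost in 10 alternatives, including without basal library 2 (-0.58, adjusted p = 0.231), that of Krt18 without basal library 2 (0.0518) or ER+ library 2 (0.052) and that of Cd24a without either basal library (0.0651 and 0.0606) or ER+ library 2 (0.109), and the count of the list fell to 4 without basal library 2, 6 without ER+ library 1 and 5 without ER+ library 2. The largest difference was that of Krt7 (603, 1650, 8354 and 8842, -3.11 ± 0.57, adjusted p = 0.00173), followed by Gata3, the luminal fate factor gene (2023, 2822, 6934 and 9369, -1.75 ± 0.22, adjusted p = 2.64e-05).

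Markers of ER- luminal and alveolar cells, which neither group is named for, were higher in the adult basal libraries than in the ER+ ones, in 13 of the 17 genes of 18 listed that passed, with a median of 2.62 (2.52 with genes at 0 in a group at their bound). Csn2, the beta-casein gene (chromosome 5, 87692624 to 87699630), was at 77881, 6854, 280 and 58 (7.49 ± 1.83, adjusted p = 0.011), and at 6053 and 546 in the adult ER- luminal libraries. Csn1s1 and Csn1s2a, the alpha-casein genes, were at 114344, 12240, 652 and 454 and at 47728, 4721, 109 and 9. For these 3 genes basal library 1 was the highest of the 6 adult libraries, and it exceeded basal library 2 in each. Without basal library 1 these 3 calls were lost (adjusted p = 0.0712 for Csn2, 0.154 for Csn1s1 and 0.0712 for Csn1s2a) and the count of the list fell to 8. It also fell to 8 without either ER+ library, and the 3 calls were lost without ER+ library 2 as well; that of Csn1s1 was also lost without ER+ library 1 (0.084). Genes of the list that were even between the basal libraries included Trf, the transferrin gene (548, 591, 24 and 9, 5.17 ± 0.47, adjusted p = 1.47e-06), and Lcn2, the lipocalin 2 gene (9692, 11640, 1513 and 1963, 2.62 ± 0.30, adjusted p = 2.94e-05). Elf5, the alveolar lineage factor gene, was at 4507, 1121, 776 and 833 and was not called (1.48 ± 0.68, adjusted p = 0.117), but edgeR on recovered reads called it (1.86, adjusted p = 0.0337), as did DESeq2 and the fit without basal library 2. Kit, a receptor tyrosine kinase gene of ER- luminal cells, was at 5567, 4125, 1288 and 2301, and at 15896 and 23281 in the ER- libraries (1.48 ± 0.50 for basal minus ER+, adjusted p = 0.0393); leaving out basal library 1, basal library 2 or ER+ library 1 ended that call. Whether other cells in the sorted fraction or RNA from lysed cells contributes to these values was not tested.

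**Figure D3:**
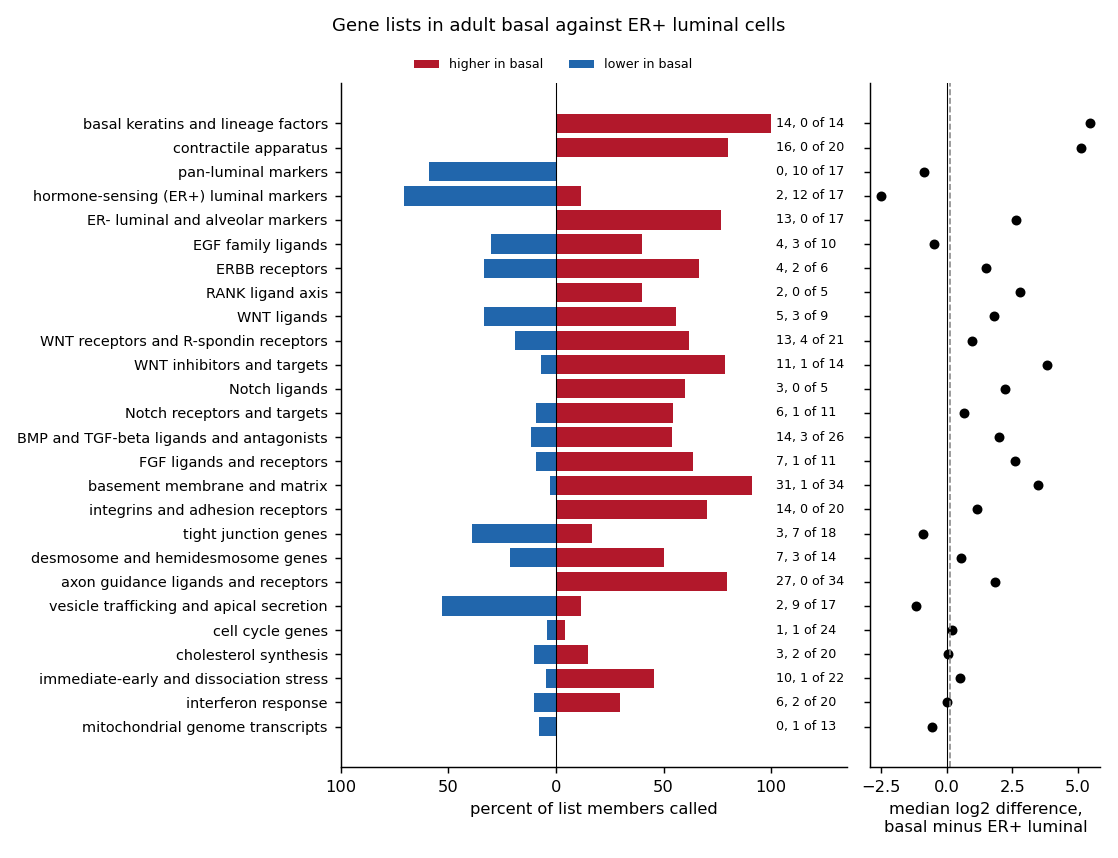
Left, percent of the members of 26 gene lists that were called higher (red, to the right) or lower (blue, to the left) in adult basal cells, with the counts higher and lower of all members printed beside each bar; right, the median log2 difference of each list, with a dashed line at the median of all genes compared (0.11). The basal keratin, contractile, and basement membrane and matrix lists lie at 5.46, 5.11 and 3.46, hormone-sensing markers at -2.52.

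Ligands and receptors of the EGF family were divided between the cell types. Nrg1, the neuregulin 1 gene (chromosome 8, 31814551 to 32884029), was at 3457, 3113, 16 and 50 (6.80 ± 0.58, adjusted p = 4.65e-06), whereas the genes of its receptors Erbb3 (3603, 2199, 12108 and 10293, -1.99 ± 0.24, adjusted p = 2.78e-05) and Erbb2 (1066, 746, 3142 and 3332, -1.86 ± 0.22, adjusted p = 1.45e-05) were higher in ER+ cells. A further neuregulin receptor gene, Erbb4, went the other way (578, 586, 225 and 215, 1.40 ± 0.39, adjusted p = 0.0115). The Erbb4 call was lost without basal library 2 (1.39) or ER+ library 2 (1.37). For amphiregulin, Areg was high in ER+ cells, and its receptor gene Egfr was higher in basal cells, at 6652, 6830, 326 and 438 (4.15 ± 0.23, adjusted p = 7.34e-09). No library of one group reached the other in Nrg1, Erbb2, Erbb3, Erbb4 or Egfr. Of the 6 genes of receptors and their inhibitors, 4 were higher in basal cells and 2 lower. Of the 10 EGF family ligands that passed, of 11 listed, 4 were higher in basal cells (Nrg1, Nrg2, Ereg and Hbegf) and 3 lower (Areg, Btc and Nrg4). The Nrg4 call was lost without basal library 1 (adjusted p = 0.0984) or ER+ library 1 (0.073), and those of Ereg (0.122) and Nrg2 (0.0704) with the 4 compared libraries alone. Hbegf was at 3088, 4829, 675 and 611 (2.59 ± 0.27, adjusted p = 3.94e-06) and Btc, the betacellulin gene, at 119, 113, 854 and 644 (-2.67 ± 0.27, adjusted p = 2.98e-06). The inhibitor genes, whose products restrain EGF receptor signalling, were Errfi1 (21784, 34688, 4631 and 5089, 2.50 ± 0.23, adjusted p = 1.98e-06) and Lrig1 (3475, 3985, 1164 and 1262, 1.62 ± 0.18, adjusted p = 6.76e-06).

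The RANK axis was uneven between replicates. Tnfsf11, the RANK ligand gene, was at 136, 15, 939 and 42 and was not called (-2.10 ± 2.13, adjusted p = 0.474), and its groups overlapped. Tnfrsf11a, the gene of the receptor RANK, was at 1410, 849, 163 and 157 (2.77 ± 0.33, adjusted p = 2.51e-05). Tnfrsf11b, which encodes the decoy receptor osteoprotegerin, was at 1156, 432, 16 and 9 (5.76 ± 0.51, adjusted p = 8.93e-07). Both receptor genes had basal values above all ER+ values.

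WNT ligands were also split. Wnt4, a target of progesterone signalling, was at 571, 647, 5887 and 3572 (-2.91 ± 0.64, adjusted p = 0.00514), and Wnt7b (58, 286, 1071 and 1370) and Wnt5a (970, 1163, 1668 and 4660) were likewise lower in basal cells. Wnt10a was at 350 and 525 in basal cells and at 0 in both ER+ libraries, so it was at least 36.5-fold higher in basal cells (adjusted p = 9.35e-06). Wnt6 (136, 52, 8 and 0), Wnt9a (41, 207, 24 and 0), Wnt5b (631, 413, 117 and 149) and Wnt11 (453, 1200, 179 and 256) were higher in basal cells too. Of 15 listed ligands 9 passed the minimum, with 5 higher and 3 lower; the calls of Wnt6, Wnt7b and Wnt9a were lost without ER+ library 2 (adjusted p = 0.0651, 0.0534 and 0.167), that of Wnt7b also without basal library 1 (0.0702) and that of Wnt9a also without basal library 2 (0.143). The call of Wnt5a was lost without basal library 1 (0.0623) or ER+ library 2 (0.115), and that of Wnt11 without basal library 2 (0.127) or ER+ library 1 (0.0582). On the receiving side, 13 of 21 receptor genes were higher in basal cells and 4 lower, with a median difference of 0.95; the lower count was 2 without basal library 2 and 5 without ER+ library 1. Lgr5, an R-spondin receptor gene known from stem cells of several epithelia, was at 1930, 5785, 86 and 124 (5.0 ± 0.46, adjusted p = 2.85e-06). Its paralogs followed, with Lgr4 at 4876, 9685, 668 and 627 (3.41 ± 0.36, adjusted p = 1.93e-05) and Lgr6 at 8865, 4088, 668 and 553 (3.31 ± 0.35, adjusted p = 2.19e-05). Groups did not overlap in the 3 Lgr genes. Among the Frizzled genes, Fzd7 had the largest difference (6637, 6197, 652 and 875, 3.08 ± 0.19, adjusted p = 3.11e-08), and Fzd6 was lower in basal cells (-0.79 ± 0.16, adjusted p = 0.00141). Of 18 listed inhibitors and targets of the pathway 14 passed, with 11 higher and 1 lower, and a median of 3.82 (2.13 with the 3 genes at 0 in ER+ cells at their bound). Wif1, which encodes a secreted WNT inhibitor, was at 3256, 1622, 8 and 33 (7.04 ± 0.97, adjusted p = 0.000234), and the general WNT target Axin2 at 184, 108, 32 and 42 (1.91 ± 0.40, adjusted p = 0.00182). Dkkl1 was the listed gene that was lower in basal cells (-2.41 ± 0.63, adjusted p = 0.00838), and it was not called without basal library 1 (adjusted p = 0.0619) or ER+ library 2 (0.0522). With the 4 libraries alone the Axin2 call was lost (adjusted p = 0.0627).

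Among Notch genes, 3 of 5 ligands were higher in basal cells and none was lower, as were 6 of the 11 receptor and target genes that passed, of 13 listed, with 1 lower. Dll1, a ligand gene of the Delta family, was at 1874, 1988, 0 and 17 (8.83 ± 1.35, adjusted p = 0.00068), and Jag2 at 3005, 2260, 70 and 124 (4.79 ± 1.01, adjusted p = 0.00435). Jag1 differed less (4386, 7313, 2506 and 1939, 1.36 ± 0.45, adjusted p = 0.0343), and its call was lost without basal library 2 or either ER+ library, which left 2 ligands. Dll4 (217, 207, 47 and 42, adjusted p = 0.056) and Dll3 (18, 10, 0 and 9, adjusted p = 0.198) did not pass. Notch3, a receptor gene of luminal cells, was the member of the receptor and target list that was lower in basal cells (2804, 2049, 4895 and 5172, -1.07 ± 0.23, adjusted p = 0.00208), and Notch1 was not called (5034, 3886, 3064 and 3440, 0.45 ± 0.21, adjusted p = 0.11). The target gene Hey1 was at 958, 793, 101 and 149 (2.82 ± 0.33, adjusted p = 1.32e-05). The count of higher receptor and target genes was 3 to 5 when 1 library was left out, lowest without either basal library.

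Among BMP and TGF-beta genes, 14 of the 26 that passed, of 27 listed, were higher in basal cells and 3 lower. Fst, the gene of the activin antagonist follistatin, was at 4685, 7196, 47 and 42 (7.0 ± 0.34, adjusted p = 3.04e-09), and Bmp7 at 1370, 1407, 78 and 58 (4.35 ± 0.49, adjusted p = 1.49e-05). Tgfb1 (744, 957, 2203 and 2392, -1.44 ± 0.29, adjusted p = 0.00129) was lower in basal cells, whereas Tgfb2 (1724, 896, 101 and 141, 3.37 ± 0.41, adjusted p = 3.93e-05) was higher, so ligand genes of the same family went opposite ways. Bmp3 (139, 90, 1210 and 875, -3.19 ± 0.58, adjusted p = 0.000997) and Inhbb were the other genes that were lower in basal cells, the call of Inhbb being lost without either basal library (adjusted p = 0.186 and 0.0757) or ER+ library 2 (0.253). In the FGF group, 7 of 11 that passed were higher, among them the ligand genes Fgf1 (2995, 3793, 497 and 372, 2.97 ± 0.23, adjusted p = 2.32e-07) and Fgf2 (274, 685, 24 and 25, 4.09 ± 0.46, adjusted p = 8.95e-06) and the feedback inhibitor gene Spry2 (3462, 3540, 450 and 405, 3.03 ± 0.16, adjusted p = 6.34e-09). The receptor gene Fgfr2 went the other way (3042, 5879, 15226 and 27472, -2.27 ± 0.48, adjusted p = 0.00414; 0.0516 with the 4 libraries alone).

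Basement membrane and matrix genes were higher in basal cells in 31 of 34 cases, with a median of 3.46. Thbs1, which encodes the matrix glycoprotein thrombospondin 1, had the highest mean basal level of the named genes that were higher there, at 80320, 86953, 3514 and 4281 (4.43 ± 0.27, adjusted p = 1.45e-07). Laminin chain genes Lama3 (12987, 15230, 272 and 471, 5.29 ± 0.48, adjusted p = 1.20e-05) and Lamb3 (6321, 6047, 311 and 380, 4.16 ± 0.24, adjusted p = 1.03e-08), whose products join in the laminin of hemidesmosome anchors, were apart between the groups, as was the collagen IV gene Col4a1 (15730, 8030, 536 and 759, 4.14 ± 0.41, adjusted p = 2.26e-05). Lama5 was the matrix gene that was lower in basal cells (5647, 5663, 10083 and 13608, -1.05 ± 0.27, adjusted p = 0.00811), which was not called without ER+ library 2 (adjusted p = 0.0733), and Fn1 and Col4a4 were not called. Adamts1, the gene of a matrix protease, was at 38700, 86396, 512 and 446 (6.92 ± 0.54, adjusted p = 5.78e-06). Integrin and adhesion receptor genes were higher in 14 of 20 cases and lower in none, with a median of 1.13. Itga6, the alpha 6 integrin gene whose product is used to sort basal cells, was at 22565, 18329, 7338 and 9064 (1.32 ± 0.17, adjusted p = 3.62e-05), while its hemidesmosome partner Itgb4 was not called (2088, 2888, 2987 and 3002, -0.29 ± 0.19, adjusted p = 0.248).

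Cell junction genes did not share a direction. Of 14 desmosome and hemidesmosome genes, 7 were higher in basal cells and 3 lower, with a median of 0.54; Pkp4, a plakophilin gene, was at 7019, 8893, 2219 and 2145 (1.86 ± 0.16, adjusted p = 8.60e-07), and Pkp2, another, at 543, 324, 1474 and 1163 (-1.64 ± 0.33, adjusted p = 0.00134). Among tight junction genes, 7 of 18 were lower in basal cells and 3 higher. The 3 desmosome genes called lower and the 3 tight junction genes called higher lie near the shares over all genes compared, 16.2% and 24.2%. Cldn10 was at 174, 375, 1955 and 1213 (-2.59 ± 0.58, adjusted p = 0.00411), while Cldn1 was at 1643, 465, 163 and 174 (2.37 ± 0.60, adjusted p = 0.00996) and lost its call without basal library 1 or ER+ library 1. The number of tight junction genes called lower fell to 1 without basal library 2, 3 without ER+ library 1 and 1 without ER+ library 2. Of the vesicle and apical secretion genes, 9 of the 17 that passed, of 18 listed, were lower in basal cells and 2 higher, with a median of -1.17. Slc12a2, the gene of the basolateral chloride cotransporter of secretory epithelia, was at 6464, 24235, 145691 and 90118 (-3.19 ± 0.71, adjusted p = 0.00624), and the water channel gene Aqp5 at 380, 629, 3785 and 5947 (-3.28 ± 0.75, adjusted p = 0.00675). Both had every ER+ value above every basal value, although the Slc12a2 call was lost with the 4 libraries alone (adjusted p = 0.061). Muc4, a membrane mucin gene, was higher in basal cells (6499, 1969, 311 and 339, 3.46 ± 0.61, adjusted p = 0.0014).

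Axon guidance genes, which in the mammary gland include cues of duct branching and layer adhesion, were higher in basal cells in 27 of 34 cases and lower in none, with a median of 1.82. Without 1 library the count was 18 to 22, and with the 4 libraries alone it was 16. Slit3, a secreted ligand gene, was at 1736, 2129, 63 and 83 (4.71 ± 0.34, adjusted p = 1.77e-07), and Sema5a, a semaphorin gene, at 5504, 5977, 109 and 141 (5.52 ± 0.32, adjusted p = 2.26e-08). The receptor gene Robo2 was at 340 and 263 in basal cells and at 0 in both ER+ libraries, at least 25.1-fold higher, whereas Robo1 was not called (1578, 1904, 2095 and 1559). Ntn4, a netrin gene, was at 1583, 5532, 163 and 240 (3.90 ± 0.58, adjusted p = 0.000334).

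By size on the log2(value + 1) scale, the genes at the top of the basal side were often at 0 in ER+ cells. That scale favours such genes, because 1 read is worth 7.76 or 8.25 in the ER+ libraries. They also reached the minimum through the basal libraries only. Ccdc187 (1118 and 530), Ptprt (503 and 957), Cntn2 (322 and 1336), Brinp3 (435 and 718) and Arhgap20 (465 and 675) had no read in either ER+ library, which put them at least 68.7-, 60.9-, 69.1-, 48.1- and 47.5-fold higher in basal cells. Ptprt encodes a receptor-type tyrosine phosphatase and Cntn2 an adhesion protein of neurons. On the ER+ side, Cldn6, a claudin gene of embryonic epithelia, was at 8, 0, 675 and 858 (-7.99 ± 1.05, adjusted p = 9.93e-05). Il33, the gene of an alarmin cytokine, was at 63, 85, 14978 and 6120 (-7.01 ± 0.62, adjusted p = 6.81e-06). Sprr1a, a gene of the cornified envelope, was at 18, 33, 2956 and 1559 (-6.40 ± 1.23, adjusted p = 0.00219). Each was at most 85 in basal libraries and at least 675 in ER+ ones. Ptn, the gene of the growth factor pleiotrophin, was among the ER+ genes of highest level (4326, 15113, 64872 and 89499, -3.24 ± 0.67, adjusted p = 0.0043; 0.0521 with the 4 libraries alone).

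Cell cycle genes did not separate the cell types, with 1 of 24 higher and 1 lower, but they differed between replicates. Mki67, the gene of a proliferation antigen, was at 10126, 1252, 6322 and 1163, and at 16523 and 3409 in the adult ER- libraries. The groups overlapped, and in each adult cell type the first library had the higher value. Of the immediate-early and dissociation stress genes, 10 of 22 were higher in basal cells and 1 lower, with Egr3 at 3670, 2940, 272 and 240 (3.68 ± 0.31, adjusted p = 5.96e-07), while Fos (51322, 71564, 38370 and 45138) and Jun (26778, 25327, 26511 and 25592) were not called. Of the other cell state lists, cholesterol synthesis had 3 of 20 higher and 2 lower and interferon response 6 of 20 higher and 2 lower. Mitochondrial transcripts had 0 of 13 higher and 1 lower. All these counts lie near or below the shares over all genes compared, 24.2% higher and 16.2% lower. The summed mitochondrial transcripts were nevertheless at 433164, 437587, 947948 and 754006. Leaving out 1 library moved the cholesterol counts to 2 to 5 higher and 1 to 3 lower, and the lower counts of the interferon and cell cycle lists to 0 to 3.

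Markers of endothelial cells and pericytes differed with the groups. Endothelial markers were higher in basal libraries in 10 of 11 cases, with a median of 5.13, and their summed value was 15549 and 17768 in the basal libraries and 1263 and 1132 in the ER+ libraries. Kdr, the gene of a VEGF receptor, was at 1071, 1299, 16 and 17 (6.08 ± 1.07, adjusted p = 0.00148), and Pecam1 at 3012, 4318, 125 and 99 (5.01 ± 1.06, adjusted p = 0.00471). The pericyte list had 5 of 6 genes higher and 1 lower (sums 9175, 8947, 5154 and 5380), led by Rgs5 at 4422, 4515, 125 and 83 (5.44 ± 1.23, adjusted p = 0.00679), and Notch3, which luminal cells express, was the lower one. Fibroblast markers were called in 3 of 10 cases (sums 22033, 16478, 8763 and 6965), immune markers in 6 of the 15 that passed (sums 2288, 2474, 1015 and 1079), adipocyte markers in 2 of 7 (3645, 5114, 887 and 1141), Schwann cell markers in 2 of 7 and erythroid markers in 0 of 2, all of them higher in basal cells where called; 24.2% of all genes compared were called higher, and the fibroblast, adipocyte, Schwann cell and erythroid counts lie near or below that share. The immune count was 1 to 3 when 1 library was left out, lowest without basal library 2, and the fibroblast count 1 to 3, lowest without ER+ library 2. Genes that endothelial or mural cells share with basal cells, such as Acta2, Myh11, Mylk and Col4a1, were also higher in the adult basal libraries. The part of endothelial or mural cells in the contractile and matrix results was not tested.

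**Figure D4:**
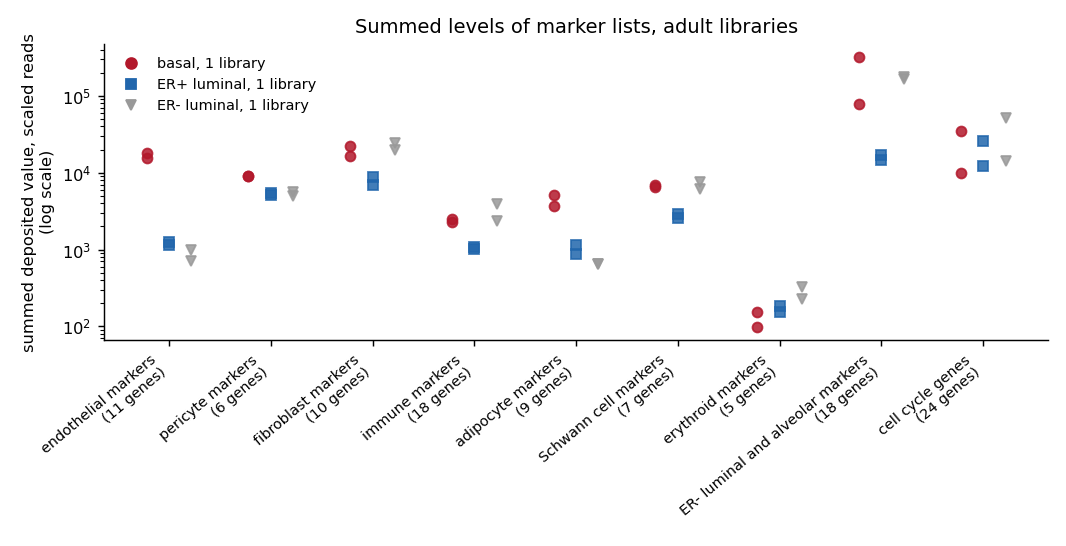
Summed deposited values (scaled reads, log axis) of marker lists of other cells, of ER- luminal and alveolar markers and of cell cycle genes in the 6 adult libraries: basal (circles), ER+ luminal (squares) and ER- luminal (triangles), 1 symbol per library. The endothelial sums of the basal libraries (15549 and 17768) lie above all 4 luminal ones, and basal library 1 (315287) exceeds basal library 2 (78196) in the ER- luminal and alveolar list.

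The same contrast was made at puberty and mid pregnancy, in libraries that the adult comparison does not use. Of the 18992 genes, 2437 (12.8%) were higher in basal cells at puberty and 2152 (11.3%) lower, and 1367 (7.20%) were higher at pregnancy and 1466 (7.72%) lower. Of the 4602 genes higher in adult basal cells, 1875 were also called at puberty, which is 40.7% of the adult and 76.9% of the puberty genes, and 1060 at pregnancy (23.0% and 77.5%). Of the 3073 lower genes, 1276 were also called at puberty (41.5% and 59.3%) and 895 at pregnancy (29.1% and 61.1%). Calls in the opposite direction numbered 67 and 62 among the higher and 21 and 26 among the lower genes. Another 2594 higher and 1605 lower genes were called in adults at neither other stage, which alone shows no difference between stages.

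Krt5, Esr1 and Prlr had the same direction at all stages. Krt5 differed by 6.07 in adults, 7.38 at puberty and 3.86 at pregnancy, Esr1 by -3.27, -3.57 and -2.88, and Prlr by -3.94, -4.01 and -3.86. The adult difference was not distinguishable from the mean of the other 2 for Krt5 (0.45, adjusted p = 0.798), Esr1 (-0.05, adjusted p = 0.979) or Prlr (adjusted p = 1.0). All 14 basal lineage genes were called higher at puberty and 13 at pregnancy. The contractile genes numbered 17 at puberty and 11 at pregnancy, where Acta2 (3.35) and Myl9 (3.65) did not pass; Tagln was among those called at both.

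The test of the difference of differences sets adults against the mean of puberty and pregnancy, not against each stage alone. By this test the adult difference was more positive for 1425 genes (7.50%) and more negative for 437 (2.30%). Egfr was among them, with 4.15 in adults, 3.50 at puberty and 1.81 at pregnancy (1.5 for the difference of differences, adjusted p = 0.00404), as was Fst (7.0, 4.70 and 3.60, 2.85, adjusted p = 0.000893). Adamts1 was at 6.92 in adults, 2.56 at puberty and 1.74 at pregnancy (4.77, adjusted p = 0.00208). Erbb4 changed side, with calls in opposite directions: it was at 1.40 in adults, -1.70 at puberty (adjusted p = 0.00536) and -4.07 at pregnancy (adjusted p = 1.17e-05). Its adult call was lost without basal library 2 (1.39) or ER+ library 2 (1.37). The adult difference of Erbb4 exceeded the mean of the others by 4.28 (adjusted p = 0.000159). Of 2 genes with a positive adult call, the negative differences at the other stages did not pass: Kit was at 1.48 in adults, -1.47 at puberty (adjusted p = 0.0599) and -1.09 at pregnancy (0.194), with 2.76 for the difference of differences (adjusted p = 0.0202), and Muc4 at 3.46, -1.88 (adjusted p = 0.0506) and -0.91 (0.407), with 4.85 (adjusted p = 0.00352). Of the ER- luminal and alveolar list, 7 genes had a more positive adult difference and none a more negative one, among them Trf (5.32, adjusted p = 0.000114). Il33 differed by -7.01 in adults and -2.64 at puberty and was not called at pregnancy (1.10), where it was at most 89 in every basal and ER+ library (-6.24, adjusted p = 0.000697).

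The endothelial markers summed to 10975 and 16722 in basal and 13875 and 1467 in ER+ cells at puberty, and to 7280 and 6102 in basal and 10725 and 6402 in ER+ cells at pregnancy, beside 15549 and 17768 in basal and 1263 and 1132 in ER+ cells of adults. Kdr was at 1246 and 1876 in puberty basal cells and at 811 and 610 in pregnancy basal cells, beside 1071 and 1299 in adults, and in ER+ cells it was at 793 and 70 at puberty and 552 and 327 at pregnancy, against 16 and 17 in adults. Erg, an endothelial factor gene, was at 330, 380, 0 and 0 in adults, at least 29.6-fold higher in basal cells. At puberty it was at 258 and 310 in basal and 244 and 11 in ER+ cells. At pregnancy it was at 139 and 120 in basal and 138 and 68 in ER+ cells (7.07 for the difference of differences, adjusted p = 0.00674). No endothelial marker was called at puberty or pregnancy. The number of interaction calls was 926 without basal library 2 and 1095 after reads were thinned to the shallowest library, against 1862. The adult luminal libraries stand apart in depth and content from all libraries of the other stages, so stage and that difference cannot be told apart.

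**Figure D5:**
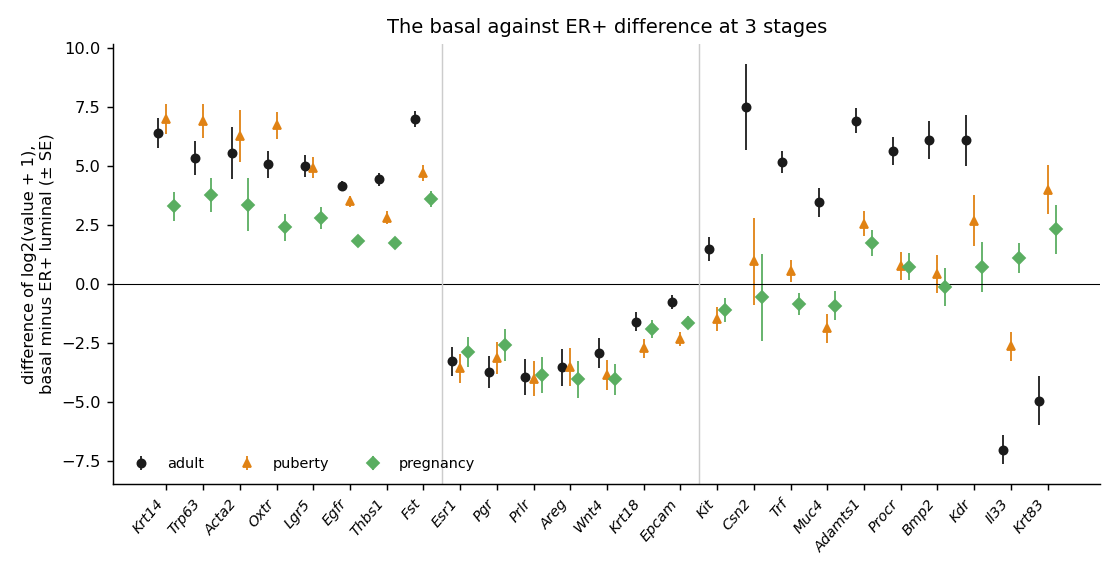
Difference of log2(value + 1), basal minus ER+ luminal (± SE), in adults (circles), at puberty (triangles) and at mid pregnancy (diamonds) for 25 genes. Basal genes (left) and ER+ or luminal genes (middle) keep their sign at all 3 stages. The estimates of some genes at right change sign, not all of them called at each stage. Examples are Kit (1.48 in adults, -1.47 at puberty and -1.09 at pregnancy) and Krt83 (-4.94, 3.99 and 2.31). Krt83 was at most 17 in the basal and ER+ libraries of puberty and pregnancy.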

How the data were processed

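Per the labels' protocols, RNA was extracted from FACS-isolated cells with a spin column kit (RNeasy micro) and made into Ovation Solo libraries. The deposited data are a single table of signal values in whole numbers, with genes in rows and libraries in columns. Per the submitters' processing notes, the tools were STAR, Picard and HTSeq and the builds GRCm38 and mm10; their versions, the annotation and any use of strand are not stated. Library totals near 20000000 and library-specific steps of the deposited signal were taken as reads scaled to that total and rounded up; inverting this returned 99.76% to 99.95% of non-zero values in the 4 compared libraries. Read depths and count-model results rest on this inference. Overlapping or antisense genes and near-identical paralogs may share reads here.

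Of 46868 rows, those of 283 of 46257 gene IDs were left out because the ID or its symbol stood on several rows, and 45974 were kept; 84 of the IDs left out would have been compared. Of 48 symbols on several single-row IDs, 31 had the same values on each ID in the 14 libraries that are not adult luminal, and 0 in the 4 that are, so the table seems to join 2 sources. No per-sample column lacked a sample (0). limma 3.58.1 (R 4.3.3, trend and robust) was fitted to log2(value + 1) of the 22219 genes that reached 10 in 2 or more of 18 libraries, with 9 group means and 9 residual degrees of freedom. The 2-sided calls were made at a Benjamini-Hochberg adjusted p under 0.05. A fold on this scale understates low genes that are above 0 in every library. Where a library of a group is at 0 it can exceed the ratio of the means, as for Dll1 (8.83 on the log2 scale, with means 227-fold apart). As alternatives, recovered reads went into edgeR 4.0.16 and DESeq2 1.42.0. The replicate number pairs no samples by the labels.

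The genes compared, the 33 lists and a panel of 21 genes were chosen with earlier results of these data known, as were the promoter motif and its list. Named genes are the panel, in each direction the 12 largest called differences without overlap and with a mean of the higher group above the median, the 6 of highest level, up to 4 called per list, and the 6 per direction whose adult difference departed most from the other stages; predicted genes and those of immunoglobulins, mitochondria and ribosomes were skipped, and further list members are named in the list paragraphs after their values were seen. Gene positions are from GENCODE vM21 of GRCm38, counted from 1; promoter sequences are from RefSeq. Other steps ran in Python 3.11.15 (matplotlib 3.10.9 for plots, numpy 2.4.6, pandas 2.3.3). Some list members are not reported here.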

Additional observations from a re-analysis of the deposited data

Results flagged for a closer look

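For 1862 genes the difference between adult basal and ER+ cells departed from that at puberty and pregnancy by the test of the difference itself, here given as the adult difference minus the mean of the other 2 on the log2(value + 1) scale. The genes named by the rule with a more positive adult difference were Slc5a7 (8.68), Cyp4b1 (7.59), Gimap6 (7.58), Mmrn1 (7.46), Tll1 (7.40) and Erg (7.07). Each was at 0 in both adult ER+ libraries. Given as bounds, their adult folds were at least 24.8 (Tll1, the lowest of these genes) to 43.8 (Gimap6, the highest) in favour of basal cells. The sizes on the log2(value + 1) scale rest on these zeros and may overstate the difference between stages. Cyp4b1 was at 448 and 511 in adult, 351 and 671 in puberty and 435 and 318 in pregnancy basal cells. In ER+ cells it was at 319 and 125 at puberty and at 200 and 104 at pregnancy. Gimap6, Mmrn1, Tll1 and Erg also had reads in every ER+ library of puberty and pregnancy. Slc5a7, a choline transporter gene, was at 194 and 680 in adult basal cells and at 7 or less in all basal and ER+ libraries of the other stages. Those with a more negative adult difference were Raver1 (-10.6), Snord16a (-8.90), Krt83 (-8.09), Il33 (-6.24), Wdr74 (-5.93) and n-R5-8s1 (-4.92). Raver1 and Snord16a were at 0 in all basal and ER+ libraries of the other stages and in adult basal cells. They were at 1575 and 1526 and at 466 and 487 in adult ER+ cells, at least 316- and 97.0-fold above adult basal cells. In adult ER- cells they were at 2209 and 1673 and at 362 and 483. These 2, Wdr74 and n-R5-8s1 are among the 20 genes that lay at least 5-fold above all other libraries in the 4 adult luminal ones. Krt83, a hair keratin gene, was at 13, 5, 256 and 306 in adults and at 62 and 113 in adult ER- cells. It was called higher in basal cells at puberty, at the low values of 17, 13, 0 and 0. At pregnancy it was at 17, 10, 7 and 0 and was not called.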

How the results depend on the processing

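Of the 164 named genes 52 lost their call under at least 1 alternative, and no called one changed direction; Tnfsf11, which was not called, ranged from -4.33 to 0.12. The 7675 calls became 5009 with the 6 adult libraries fitted alone (1799 of them lower) and 3357 with the 4 compared libraries alone (2399 higher and 958 lower), and ranged from 4957 to 6629 when 1 library was left out (3246 to 3970 higher, 1711 to 2988 lower), lowest without basal library 2. Counts that the adult difference departs from the other stages, 1862 in all, ranged from 926 to 1745 with 1 library left out and were 1095 on thinned reads. On recovered reads edgeR called 3726 higher and 2671 lower and DESeq2 3669 and 2772. The replicate block gave 4619 higher and 3070 lower; the labels do not say that a number marks a shared animal or batch, and it gives only 2 pairs. Deviations of same-numbered adult libraries correlated at 0.152 (basal, ER-), 0.111 (basal, ER+) and 0.108 (ER-, ER+). Between stages such values reached 0.104 (adult basal, puberty ER-) and -0.147 (adult basal, pregnancy ER+). The adult values therefore do not show that equal numbers belong together. More negative adult differences, 437 in all, were 763 with median-ratio factors, 810 with quantile normalization, 877 with DESeq2 and 241 without trend and robust prior. Chosen after seeing the data were the fits that kept ambiguous rows (4606 higher, 3080 lower) and left out the genes that set the adult luminal libraries apart (4594 and 3052). With 1 read worth up to 8.25, ER+ levels under 11.99 are not resolved. The cause of these changes was not tested.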

Other observations

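In each adult cell type the first library held more RNA of several cell cycle genes and of Tnfsf11 and Calca than the second. No label pairs the numbers. Top2a, a topoisomerase gene of dividing cells, was at 4050 and 347 in basal, 2389 and 537 in ER+ and 5201 and 959 in ER- libraries. Tnfsf11 was at 136 and 15, 939 and 42, and 123 and 0, and Calca, the calcitonin gene, at 1859 and 244, 551 and 9, and 35 and 0. The hormone receptor genes Esr1, Pgr and Prlr went the other way. Esr1 was at 932 and 1566, 11208 and 12091, and 2373 and 3246, and Pgr at 731 and 2377, 14528 and 20643, and 2972 and 4580. The summed cell cycle list was at 34848 and 9905, 25575 and 12087, and 50758 and 14367. These genes were noticed in the data, and no test was made of them.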
